A study of Taeniopygia guttata with 5 samples.

Results

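Adult HVC was compared with adult whole brain in the zebra finch, *Taeniopygia guttata*, over the 1800 transcripts that the authors listed for this comparison out of 10859 they tested. These are the transcripts with the smallest of the authors' own p-values for this contrast of tissues at 100 d, and 4675 transcripts are listed anywhere in the series. HVC tissue was dissected from sagittal brain slices of males at 100 d, and RNA of 4 birds was pooled into 1 library. RNA from the whole brains of 2 males at 100 d was pooled into the other library, so each side of the comparison is a single library. The birds were watched before collection and had neither sung nor heard song, and the adults had been housed in groups after leaving their parents. No genotype, transgene or treatment is given for any bird. A pair of HVC libraries from males at 45 d, R92L1 and R92L2, and a whole brain library at 45 d are used below only for the spread between libraries and for the same transcripts in juveniles.

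HVC is a premotor nucleus in the dorsal pallium of songbirds. It drives the vocal motor nucleus RA and also sends axons to the striatal nucleus Area X, and local inhibitory interneurons shape the firing of both kinds of projection neuron. In males it is sensitive to sex steroids, receives new neurons in adulthood from the ventricular zone above it, and makes retinoic acid, which is needed for normal song development. The whole brain reference holds the cerebellum, thalamus, midbrain, hindbrain and white matter tracts that HVC does not contain, so a ratio of HVC to whole brain sets the nucleus against all of these at once. In pooled tissue, fewer cells of a type and less RNA per cell cannot be told apart. The HVC pool may also hold parts of the ventricular zone that lies on the nucleus.

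The values are read counts per transcript. The listed counts added up to 384273 reads in HVC and 786317 in whole brain, but these sums leave out every transcript that was not listed and are not the depth of the libraries, which is not known. The size of the whole brain library relative to the HVC library, 1.51, was taken from the scaling behind the deposited fold changes. The 167 transcripts with at least 50 reads that the age comparisons list and this one does not gave a median of 1.52. Absence from this list already places their ratios near the authors' scaling, so that value is no independent check. A ratio is HVC reads over whole brain reads after this scaling, with an exact 95% interval (Clopper-Pearson) that covers counting error only. A transcript was called higher or lower in HVC when its ratio was at least 2-fold and the whole interval lay on that side of 1. A library with 0 reads was set to a floor of 3 counts. Reads are printed unscaled throughout, and relative to the adult HVC library the sizes at 45 d were 0.903 for R92L1, 1.09 for R92L2 and 1.82 for whole brain. With 1 library a side there is no replicate check of any single ratio, and HVC and whole brain carry different run labels (R92 and R81), so tissue and run cannot be told apart. Genes are not compared with each other in level, since transcript lengths were not used.

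By this rule 664 of the 1800 transcripts (36.9%) were higher in HVC, 643 (35.7%) were lower and 493 were not called. The 2-fold threshold alone gave the same 664 and 643, so the interval condition removed no listed transcript. Selection of the list by p had nearly fixed this in advance. At a 4-fold threshold 217 (12.1%) were higher and 143 (7.94%) were lower. The calls depended on the number of reads. Of the 460 transcripts with under 50 reads in both libraries together, 294 were called higher and 139 lower, while of the 263 with at least 1000 reads, 29 were called higher and 75 lower. A transcript with few reads had to differ strongly to be listed at all, so these shares say nothing about transcripts outside the list. The same rule put 97 of 1149 transcripts (8.44%) past 2-fold between the pair of 45 d HVC libraries, and 27 (2.35%) past 4-fold. Between that pair the median difference was 0.35 on the log2 scale.

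The shares of 36.9% higher and 35.7% lower are the background for every gene list below, and a list with about these shares shows nothing of its own. This background is rough, since higher calls were more frequent among transcripts with few reads and rarer among those with many. Lists were not matched for reads. The direction of calls also rested on the scaling. By the median of ratios over the listed transcripts every ratio was 0.75 higher on the log2 scale, so that 863 transcripts were called higher and 158 lower, and a gene printed here as less than 3.36-fold lower was no longer called lower. By the sum of the listed counts that limit was 2.71-fold. List counts given below by the median of ratios have another background, the 863 higher and 158 lower of 1800 by that scaling. Changes given as lower and smaller than a limit hold under the reported scaling and not under the alternative that set it. Both alternatives were computed only over transcripts picked for differing between the tissues, and which scaling is right was not tested.

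**Figure D1:**
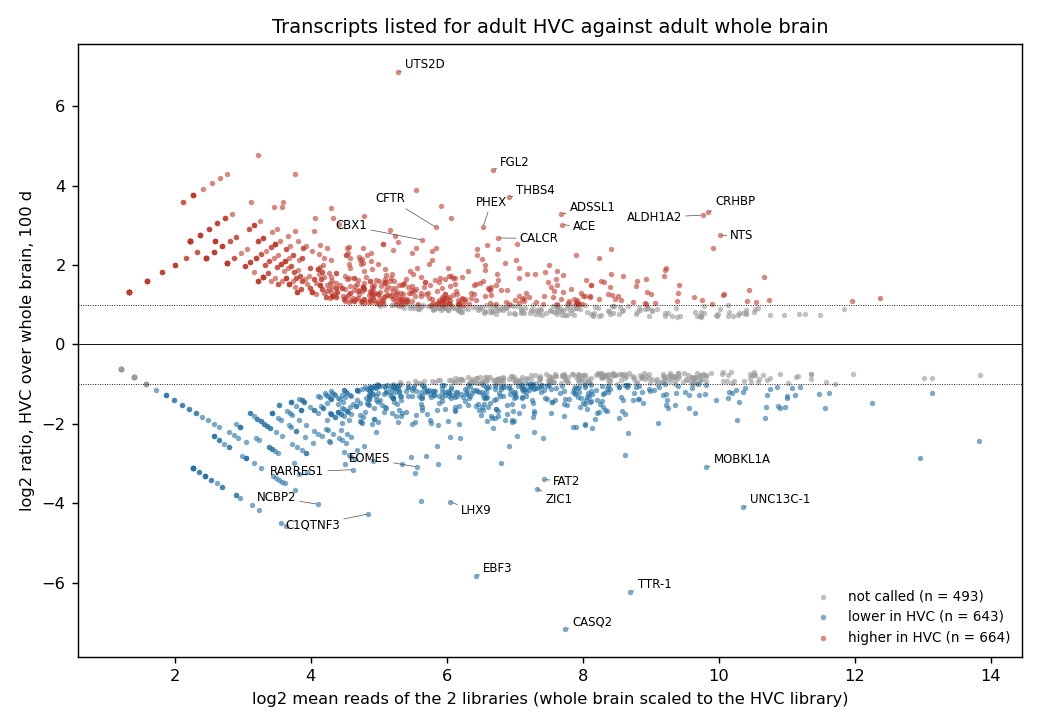
Log2 ratio of HVC over whole brain at 100 d (vertical axis) against the log2 mean of the reads in both libraries, whole brain scaled to the HVC library (horizontal axis), with 1 point for each of the 1800 listed transcripts. Red points are the 664 called higher, blue points the 643 called lower and grey points the 493 not called; dotted lines mark 2-fold, a library with 0 reads is drawn at its floor of 3 counts, and the empty band around 0 is where transcripts did not enter the authors' list.

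A fit across libraries was made beside the counting rule. It applied edgeR's quasi-likelihood F-test to both adult libraries together with the pair of 45 d HVC libraries, which alone repeats a group and gives the spread that every other library is assumed to share. The labels do not say that the 45 d libraries came from separate birds, so that spread may be technical. The fit also reuses the adult counts behind the authors' list, so passing it is no independent check of any listed transcript. The fit took 1361 transcripts, and 149 (10.9%) were higher and 188 (13.8%) lower in HVC at an adjusted p under 0.1. Of the 664 transcripts called higher by reads, 398 were in the fit and 149 passed it; of the 643 called lower, 478 were in the fit and 188 passed. Among calls with at least 200 reads, 91 of the 100 higher and 152 of the 226 lower that were fitted passed. Leaving out 1 library of the pair would remove the only repeat from this fit, so it was done in another one. There, too, no group is repeated once a library is left out, and the spread is then not one between libraries of a group. It cannot show how far the 149 and 188 calls rest on either library. In a fit of tissue and age over all libraries, 227 were higher and 375 lower with both, 240 and 396 without R92L2, and 0 and 0 without R92L1, where 850 of 1138 had an unadjusted p under 0.05. DESeq2 on the same 4 libraries called 17 higher and 19 lower.

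Peptide signalling genes held several of the largest ratios in adult HVC. All 6 listed genes of peptide processing and dense-core vesicles were called higher, with a median log2 ratio of 2.77 against -0.74 over all listed transcripts. This gene list was chosen with earlier results of these data known. It holds *CRHBP*, *ACE* and *PHEX*, which are also among the 12 largest higher ratios. That all 6 were higher is therefore no independent result about the class. Every other scaling tried raised the HVC ratios, so none of them could remove a higher call. All 5 of these genes that could be fitted passed the edgeR test, which reuses the adult counts by which they were listed. *CRHBP*, whose product binds and restrains corticotropin-releasing hormone, had 1670 reads in HVC against 251 in whole brain, a ratio of 10.05 with an interval of 8.79 to 11.5. It lies on chromosome Z of taeGut1 from 56938915 to 56947642, and the juvenile libraries had 1265 and 1160 reads in HVC against 258 in whole brain. *CADPS2*, which primes dense-core vesicles for release, had 2492 reads in HVC against 1168 in whole brain (ratio 3.22, 3.0 to 3.46). *ACE*, the angiotensin-converting peptidase, had 370 reads against 69 (ratio 8.10, 6.25 to 10.6). The membrane endopeptidase gene *PHEX* had 164 against 32 (ratio 7.74, 5.27 to 11.7). *CHGB*, a granin stored in dense-core vesicles, was the least different of the better-covered members, with 187 against 122 reads (ratio 2.31, 1.83 to 2.93).

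Of the 6 listed neuropeptide genes, 3 were called higher and 3 lower. *UTS2D*, related to the peptide urotensin, had 77 reads in HVC against 1 in whole brain, a ratio of 116 whose interval of 20.3 to 4651 shows how little a single read fixes. It lies on chromosome 9 of taeGut1 from 15566878 to 15576308, and the juveniles had 61 and 78 reads in HVC against 3 in whole brain. *NTS*, the neurotensin precursor (chromosome 1A, 41472811 to 41485260), had 1800 against 404 reads, a ratio of 6.73 (6.04 to 7.51). *TAC1*, the substance P precursor, had 67 against 17 reads (ratio 5.95, 3.45 to 10.8). In the juveniles it went the other way, with 10 and 11 reads in HVC against 55 in whole brain. *TRH*, *ADCYAP1* and *NMB*, precursors of thyrotropin-releasing hormone, PACAP and neuromedin B, were lower in HVC. *TRH* had 33 against 104 reads (2.09-fold lower), *ADCYAP1* had 24 against 76 (2.10-fold lower) and *NMB* had 3 against 24 (5.30-fold lower, 1.61 to 27.5). The calls of this trio were scaling-dependent, since 1 of them was lower by the TMM scaling and 0 by the median of ratios.

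Peptide receptors were split. The VIP and PACAP receptor genes *VIPR2*, with 91 against 43 reads (ratio 3.2, 2.20 to 4.71), and *VIPR1*, with 38 against 12 (ratio 4.78, 2.45 to 10.1), were higher in HVC. *CALCR*, the calcitonin receptor gene (chromosome 2, 25377718 to 25432641), had 187 against 44 reads (ratio 6.42, 4.60 to 9.13). The genes of the kappa opioid receptor *OPRK1* (17 against 63), the somatostatin receptor *SSTR3* (14 against 56) and the orexin receptor *HCRTR2* (1 against 18) were lower. Genes of the neurotensin, tachykinin, urotensin and CRH receptors were not among the listed transcripts, which does not show that they were unchanged.

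Of 7 listed retinoid genes, 4 were called higher and 3 lower. *ALDH1A2*, which makes retinoic acid from retinaldehyde, had 1575 reads in HVC against 249 in whole brain, a ratio of 9.55 (8.35 to 11.0). It lies on chromosome 10 of taeGut1 from 6786365 to 6838567, and the juvenile libraries had 1858 and 2961 reads in HVC against 423. The lipase *LPL* had 182 against 52 reads (ratio 5.28, 3.86 to 7.34), the endocytic receptor *LRP2*, which takes up retinoid carriers, 725 against 528 (ratio 2.07, 1.85 to 2.32), and the retinaldehyde reductase *DHRS3* 15 against 7 (ratio 3.24, 1.24 to 9.38). The lower ones included *CRABP1*, the cellular retinoic acid binding protein, with 4 against 26 reads (4.31-fold lower, 1.49 to 17.0), and *TTR-1*, described with the choroid plexus. Outside this list, *RARRES1*, a gene named for its response to retinoic acid receptors in human cells, was also lower, with 5 against 67 reads (8.87-fold, 3.62 to 28.2).

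Among other genes with the largest ratios, secreted matrix proteins came first. *FGL2*, a fibrinogen-like protein gene, had 196 reads in HVC against 14 in whole brain (ratio 21.1, 12.3 to 39.4). *THBS4*, a thrombospondin (chromosome Z, 55507223 to 55610018), had 225 against 26 (ratio 13.1, 8.69 to 20.4). *ADSSL1*, the muscle-type adenylosuccinate synthase gene (chromosome 5, 53224961 to 53237624), had 372 against 58 reads (ratio 9.68, 7.33 to 13.0), and in juveniles 330 and 432 against 145. *CFTR*, a chloride channel gene, had 102 against 20 (ratio 7.70, 4.74 to 13.1). *CBX1*, a heterochromatin protein gene placed on no chromosome (Un), had 86 against 21 (ratio 6.18, 3.80 to 10.5), but the juvenile pair itself differed for it, with 143 and 30 reads. All 24 transcripts with the largest ratios, 12 in each direction, passed the edgeR test. They were picked for the size of their ratios in the same adult counts that the test uses, so passing was no independent check. The spread in that test came from the juvenile HVC pair, and neither adult library was repeated. Of the 24, 23 were called the same way in both juvenile HVC libraries, the exception being *CBX1*.

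**Figure D2:**
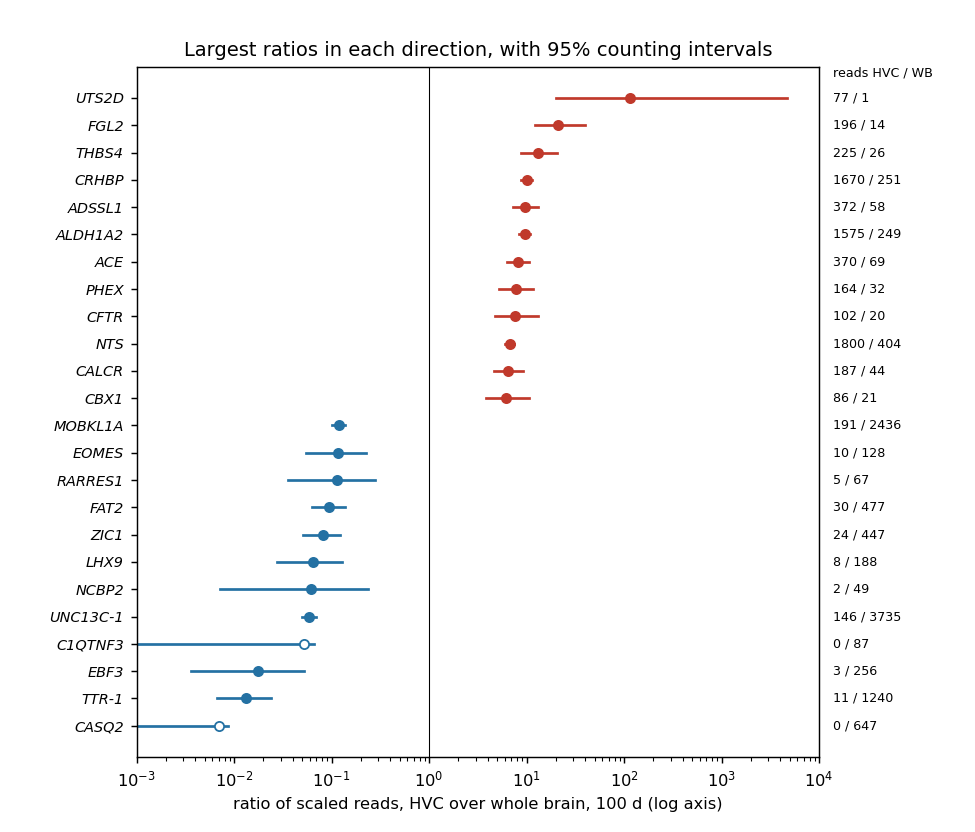
Ratio of scaled reads, HVC over whole brain at 100 d (horizontal log axis), for the 12 largest ratios in each direction among transcripts with a symbol and at least 50 reads. Points are ratios, bars exact 95% counting intervals, open points ratios with 0 reads set to the floor of 3 counts, and the numbers at the right are the reads. *UTS2D*, with 77 reads against 1, has the widest interval, and *CASQ2*, with 0 against 647, lies farthest to the left.

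The 12 largest lower ratios included genes known from cerebellum, thalamus and choroid plexus, and others with no such assignment. *CASQ2*, a calsequestrin that stores calcium and is known from Purkinje cells in chicken, had 0 reads in HVC against 647 in whole brain. At the floor of 3 counts it was 143-fold lower, with an interval from 116-fold. Its gene lies on chromosome 1 of taeGut1 from 92879562 to 92912484, and the juvenile HVC libraries had 1 and 17 reads against 828. *TTR-1*, the thyroid hormone carrier made by choroid plexus (chromosome 2, 111938264 to 111946440), had 11 against 1240 reads (74.7-fold lower, 41.6 to 150.0), and reads may be shared with a paralog. *EBF3*, a transcription factor of non-pallial neurons, had 3 against 256 (56.5-fold lower, 19.1 to 276). *LHX9*, a LIM homeobox gene of thalamus, had 8 against 188 (15.6-fold lower, 7.74 to 36.6). These genes were near absent from the HVC library while well covered in whole brain. *UNC13C-1*, a vesicle priming factor of cerebellar granule cells in rodents, had 146 against 3735 reads (16.9-fold lower, 14.4 to 20.1). *ZIC1*, a zinc finger gene of granule cells, had 24 against 447, and *FAT2*, a granule cell protocadherin, had 30 against 477. *EOMES*, a T-box gene, had 10 against 128. *MOBKL1A*, which encodes a kinase activator, was the best covered after *UNC13C-1*, with 191 against 2436 reads (8.45-fold lower, 7.29 to 9.84). *C1QTNF3*, a secreted C1q-like protein gene, had 0 against 87 reads, 19.2-fold lower at the floor with an interval from 15.3-fold. *NCBP2*, of the cap binding complex, had 2 against 49 (16.2-fold lower, 4.26 to 138).

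Marker lists were used to describe the library by region and cell type. Only markers in the authors' list are seen, and that list was selected by p for this contrast, so they cannot check the dissection. All 14 listed cerebellar markers were called, 10 lower and 4 higher, and their reads summed to 2013 in HVC and 7070 in whole brain. The 4 higher were *PVALB-2*, *PVALB-1*, *KCNC1* and *ITPR1*, which interneurons and other neurons also use, and which cells gave these reads was not tested. All 7 listed markers of thalamus, midbrain and hindbrain were lower under every scaling, with a median log2 ratio of -2.83 and sums of 142 and 1282 reads. *TCF7L2*, a thalamic transcription factor, had 94 against 498 reads (3.51-fold lower, 2.81 to 4.42) and *SNCG*, a synuclein of hindbrain and sensory neurons, 22 against 167 (5.03-fold lower, 3.21 to 8.24). Of the 5 listed oligodendrocyte markers 4 were lower, with sums of 2251 and 9567 reads. Myelin basic protein, *MBP*, had 1014 against 4548 reads (2.97-fold lower, 2.77 to 3.18), *ENPP2* had 838 against 3740 (2.96-fold lower, 2.74 to 3.19) and the myelin lipid enzyme gene *UGT8* had 37 against 164. Under the median of ratios 1 of these 4 myelin markers stayed lower.

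Other cell types contributed few listed markers. *SOX9*, found in astrocytes and neural progenitors, had 10 against 1 reads, and the vessel markers were split between *PDGFRB* (30 against 18, higher) and *KDR* (21 against 64, lower). None of the 15 microglial or 10 red blood cell markers was listed. Of the 18 markers of ventricular zone and new neurons, 6 were listed, and 3 of these were higher. *STMN1*, a microtubule regulator of growing neurons, had 114 against 53 reads (ratio 3.25, 2.32 to 4.59), *DCX*, doublecortin, 40 against 28 (ratio 2.16, 1.30 to 3.63) and *TOP2A*, a topoisomerase of dividing cells, 16 against 7 (ratio 3.45, 1.34 to 9.92). *VIM*, of radial glia, had 348 against 265 and *ELAVL4*, of neurons, 882 against 2170, neither called. *PAX6*, which progenitors share with cerebellar granule cells, was lower, with 23 against 129 reads. Of 5 listed cell cycle genes, 4 were higher, including the replication licensing gene *MCM6* (54 against 27) and the cyclins *CCNB2* (28 against 12) and *CCNE2* (42 against 27), while *CCNE1* was lower (16 against 61). Of the 2 higher ones that could be fitted, none passed the edgeR test. The part of overlying ventricular zone in these values was not tested.

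Transcription factors that mark brain regions were mostly lower in HVC. Of 20 listed homeobox and region factors 15 were lower and 2 higher, with a median log2 ratio of -1.74, and the number lower ranged from 9 to 15 over the scalings. The higher pair was thinly covered: *TFAP2C* had 16 against 4 reads and the orphan nuclear receptor gene *NR2F1* 16 against 5. None of the 3 listed markers of pallial excitatory neurons, which HVC contains, was called higher. *RORB*, an orphan nuclear receptor gene, had 79 against 299 reads (2.51-fold lower, 1.95 to 3.25), and *SATB1*, a chromatin organizer gene, 924 against 2626, not called. Under the median of ratios 0 of the 3 were called. Of 4 listed striatal markers, 1 was higher and 2 lower. The higher one was *TAC1*, described with the neuropeptides (67 against 17 reads). *CHAT*, which makes acetylcholine, had 11 against 63 reads, *ISL1*, a homeobox gene of striatal and motor neurons, had 1 against 13, and *FOXP2*, the vocal learning gene, had 77 against 226, a ratio of 0.51 that was not called.

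Of 9 listed inhibitory interneuron genes, 4 were higher and 5 lower. *PVALB-2*, a parvalbumin of fast-spiking interneurons, had 1183 against 826 reads (ratio 2.16, 1.98 to 2.37). Its paralog *PVALB-1* had 22 against 0, 11.1-fold higher at the floor of 3 counts with an interval from 8.27-fold, and the pair may share reads. *KCNC1*, the Kv3 channel that allows fast spiking, had 467 against 292 reads (ratio 2.41, 2.08 to 2.80), and *SOX6*, a factor of these cells in mammals, had 410 against 220 (ratio 2.81, 2.38 to 3.33). The other scalings raise every ratio and so could not remove these 4 higher calls. The 5 lower calls became 1 under the median of ratios, where *RELN* had a log2 ratio of -0.70 and was not called. The lower ones included *RELN*, the secreted reelin protein, with 680 against 2798 reads (2.73-fold lower, 2.51 to 2.97). Also lower were *NXPH1*, a neurexin ligand, with 136 against 568, and *CALB1*, calbindin, with 100 against 414. So was *LHX8*, a factor of cholinergic and other subpallial neurons, with 47 against 165. *LHX8* was far lower in the juveniles, with 3 and 7 reads against 163. *RELN* and *CALB1* are also abundant in cerebellum, and what cerebellum added to the whole brain counts was not tested. The paper names *RELN* among genes enriched in adult HVC according to earlier reports by other methods, the opposite direction to the ratio here. An earlier microarray study that it cites compared HVC with the adjacent shelf, so the references can differ.

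Receptor genes of the fast transmitters were called in both directions. Of 5 listed glutamate receptor and scaffold genes, 2 were higher and 0 lower. *GRIN1*, the obligatory NMDA receptor subunit, had 1287 against 957 reads (ratio 2.03, 1.87 to 2.21), the AMPA subunit *GRIA4* 1427 against 3612 (ratio 0.60, not called) and the kainate receptor partner *NETO1* 2490 against 2243 (ratio 1.68, not called). Of 7 GABA and glycine receptor genes, 5 were lower and 1 higher, and by the median of ratios 3 were lower. *GLRA2*, a glycine receptor subunit, had 46 against 197 reads (2.84-fold lower, 2.05 to 4.0). It did not pass the edgeR test and was not called by the median of ratios, with a log2 ratio of -0.75. *GLRA3* had 284 against 908 (2.12-fold lower, 1.85 to 2.43) and *GLRA1*, the spinal and hindbrain form, 3 against 28. *GABRE*, the epsilon subunit of the GABA-A receptor, was the one higher, with 225 against 100 reads (ratio 3.40, 2.67 to 4.34), and passed the edgeR test. Glycine receptors are best known from the spinal cord and brainstem, and what these regions added to the whole brain counts was not tested. The paper prints the symbol *GLAR2* among genes enriched in adult HVC. It was read here as *GLRA2*, whose ratio went the opposite way. The galanin receptor symbol *GALR2* is as close to the printed one, so a disagreement with the paper cannot be read from this.

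Receptors for monoamines, acetylcholine and purines gave 4 higher and 2 lower of 7. The serotonin receptor genes went apart, *HTR1F* with 161 against 94 reads (ratio 2.59, 1.99 to 3.37) and *HTR1B* with 102 against 331 (2.15-fold lower, 1.72 to 2.71). The muscarinic receptor gene *CHRM3* was lower (33 against 160), while the nicotinic subunit *CHRNA3* (57 against 39), the adenosine receptor *ADORA1* (59 against 40) and the ATP-gated channel *P2RX5* (24 against 8) were higher. Of 5 listed steroid and nuclear receptor genes, 2 were higher and 3 lower. *RORA*, abundant in Purkinje cells and thalamus, was lower with 154 against 735. The aromatase transcript, named CP19A_TAEGU in the file and singled out after its values were seen, had 72 reads against 276 (2.54-fold lower, 1.95 to 3.34).

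Of 16 listed genes of potassium and related channels, which shape how neurons fire, 8 were higher and 5 lower, and by the median of ratios 9 and 2. *KCNQ3*, a subunit of the M-current, had 1526 against 962 reads (ratio 2.40, 2.21 to 2.60), *KCNT2*, a sodium-activated channel, 301 against 181 (ratio 2.51, 2.08 to 3.04) and *KCNV1*, a silent subunit that modifies Kv2 channels, 150 against 51 (ratio 4.44, 3.21 to 6.23). The lower ones included the A-type channel gene *KCND2* (25 against 92) and the leak channel gene *KCNK1* (17 against 150; 5.84-fold lower, 3.53 to 10.3). Among 11 sodium, calcium and TRP channel genes 4 were higher and 4 lower, shares near the background, and by the median of ratios 6 and 1. *TRPM2* had 151 against 57 reads (ratio 4.0, 2.93 to 5.52), *TRPC4* 162 against 120 (ratio 2.04, 1.60 to 2.60) and *TRPM3* 373 against 1871 (3.32-fold lower, 2.97 to 3.72). A pair of transcripts carried the name *CACNA1C*, an L-type calcium channel, with 142 against 90 and 1046 against 967 reads, and only the first was called.

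Solute carriers made the largest list, with 44 transcripts, 23 higher and 14 lower, and by the median of ratios 27 and 6. The best covered of the higher ones were *SLC8A1*, the sodium-calcium exchanger, with 496 against 273 reads, *SLC35F3* with 401 against 198, *SLC6A8*, the creatine transporter, with 396 against 125, and *SLC7A1*, a cationic amino acid transporter, with 331 against 229. For *SLC6A8* the ratio was 4.78 (3.90 to 5.90), but the juvenile pair had 421 and 108 reads, a spread about as wide. *SLC30A1*, a zinc exporter, was lower with 314 against 1060. Of the 14 higher solute carriers that could be fitted, 8 passed the edgeR test, and of the 12 lower ones, 1 passed.

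Of 16 axon guidance genes, 5 were higher and 6 lower, shares near the background, and by the median of ratios 8 were higher and 2 lower. The higher ones included a secreted semaphorin, semaphorin receptors and a Slit receptor. *SEMA3E*, a secreted semaphorin, had 574 against 163 reads (ratio 5.32, 4.46 to 6.37), and *NRP1*, a semaphorin co-receptor, had 596 against 272 (ratio 3.31, 2.86 to 3.83). *PLXNA4-1*, a plexin, had 166 against 73 (ratio 3.43, 2.59 to 4.59). *ROBO2*, a Slit receptor, had 668 against 336 (ratio 3.0, 2.63 to 3.43). Each of these was also higher in both juvenile HVC libraries than in juvenile whole brain, with 431 and 664 reads against 235 for *SEMA3E* and 537 and 828 against 475 for *ROBO2*. The lower ones included the semaphorins *SEMA4D* (145 against 581) and *SEMA3A* (102 against 352), the netrin receptor *UNC5C* (28 against 132) and the ligand *SLIT3* (22 against 131; 3.94-fold lower, 2.50 to 6.51).

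Of 17 cadherins and synaptic adhesion genes, 5 were higher and 5 lower, and by the median of ratios 6 and 3. *CDH6*, a classical type II cadherin, had 1106 against 732 reads (ratio 2.28, 2.08 to 2.51), while *CDH19* (113 against 488) and *CDH4* (7 against 47) were lower. *CNTNAP1*, a contactin-associated protein of axons, had 86 against 42 reads (ratio 3.09, 2.11 to 4.58) and the protocadherin *PCDH21* 53 against 24 (ratio 3.33, 2.02 to 5.65), though juveniles had 11 and 20 against 56 for the latter. In the extracellular matrix list, with 6 of 14 higher and 5 lower (8 and 2 by the median of ratios), *COL6A3*, a collagen VI chain, had 103 against 41 reads (ratio 3.79, 2.62 to 5.59) and *TNC*, tenascin C, 50 against 32 (ratio 2.36, 1.48 to 3.80). The small proteoglycan *OGN* (15 against 64) and the matrilin *MATN2* (4 against 30) were lower. Vesicle fusion genes leaned lower, with 4 of 18 higher and 8 lower, but this order was 8 and 1 under the median of ratios. *SYT14*, of the synaptotagmin family, had 171 against 99 reads (ratio 2.61, 2.02 to 3.38), *SYT2*, the calcium sensor of fast synapses, 54 against 198 (2.43-fold lower, 1.79 to 3.35) and *SV2B*, a synaptic vesicle glycoprotein, 1505 against 1146 (ratio 1.98, not called).

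**Figure D3:**
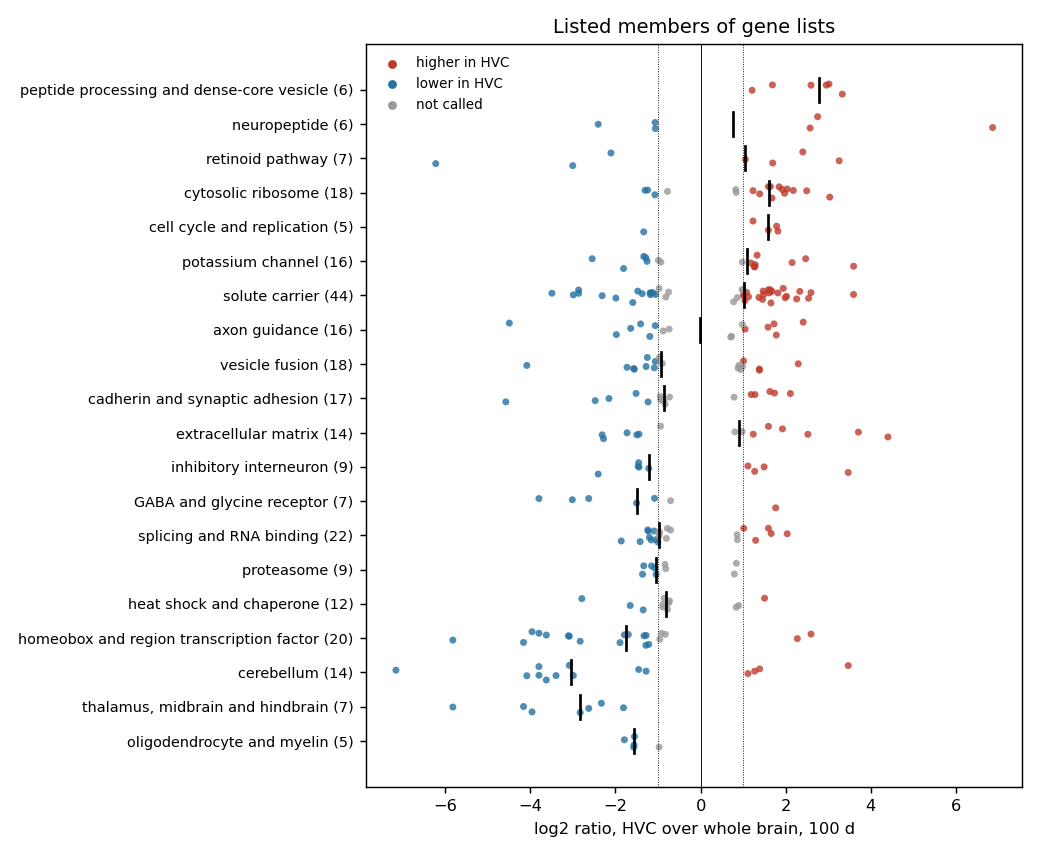
Log2 ratio of HVC over whole brain at 100 d (horizontal axis) for the listed members of 20 gene and marker lists, with the number listed in brackets. Each point is 1 transcript, vertical scatter within a row has no meaning, bars are medians, dotted lines mark 2-fold and a library with 0 reads is drawn at its floor; all 6 points of peptide processing lie above 1 and all 7 of thalamus, midbrain and hindbrain below -1.

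Signalling downstream of receptors included some of the best covered calls. *PDE1A*, a calcium-dependent phosphodiesterase, had 2349 reads in HVC against 1625 in whole brain (ratio 2.18, 2.05 to 2.33), and *PRKAR1A*, a regulatory subunit of protein kinase A, 1013 against 545 (ratio 2.81, 2.53 to 3.12). *PLCB4*, the phospholipase of Purkinje cells and thalamus, had 715 against 3898 (3.61-fold lower, 3.33 to 3.92). Of 3 listed immediate early genes, 2 were lower and 1 higher, but the call of *EGR1* was lost by the median of ratios and by the sum of listed counts. *EGR1*, also called ZENK, had 975 against 3569 reads (2.42-fold lower, 2.26 to 2.60), and *NR4A3* 54 against 276 (3.39-fold lower, 2.52 to 4.62). *FOSL2* had 20 against 12 and was called higher. Juvenile *EGR1* was also lower in HVC, with 921 and 971 reads against 6079. Among ligands, *VEGFA*, the vascular growth factor, had 61 against 266 reads, and *CBLN2*, a synaptic organizer, had 38 against 20.

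Housekeeping groups were called in both directions. Of 18 listed ribosomal protein genes, 12 were higher and 3 lower, with a median log2 ratio of 1.62, but the reads summed over all 18 were 1981 in HVC and 3477 in whole brain, a ratio of 0.86, since the most abundant one was lower. *RPL4* had 164 against 44 reads (ratio 5.63, 4.01 to 8.04), *RPL6* 95 against 46 and *RPS3* 69 against 29, whereas *RPL9* had 529 against 1894 (2.37-fold lower, 2.15 to 2.62). Ribosomal genes have many near-identical copies, so these counts are uncertain, and of the 9 higher ones fitted only 3 passed the edgeR test. Proteasome genes were lower in 5 of 9 and higher in 0, among them the core subunit *PSMA6* (124 against 482). By the median of ratios 2 were higher and 0 lower. Splicing and RNA binding genes were lower in 9 of 22 and higher in 5; *HNRNPA2B1* had 5385 against 19057 reads (2.34-fold lower, 2.27 to 2.42) and the splicing factor *SFRS5* 966 against 595 (ratio 2.45, 2.21 to 2.72). The 9 lower calls of this list became 0 by the median of ratios. Among chaperones, *BAG3*, a co-chaperone of HSP70, had 100 against 1044 reads (6.91-fold lower, 5.63 to 8.58) and *HSP90B1*, of the endoplasmic reticulum, 1159 against 4457 (2.55-fold lower, 2.39 to 2.72). Of 13 oxidative phosphorylation genes, 3 were higher, such as *NDUFS4* of complex I (295 against 141), and 4 lower, such as *COX7B* of complex IV (104 against 632; 4.02-fold lower, 3.27 to 5.0).

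Of 16 listed immune genes, 8 were higher and 6 lower, and by the median of ratios 10 and 1. *ISG12*, an interferon-stimulated gene, had 290 against 156 reads (ratio 2.81, 2.30 to 3.43) in adults, and 2263 and 5818 reads in the juvenile HVC libraries against 937. The chemokine receptor *CXCR7* had 211 against 84 reads (ratio 3.79, 2.93 to 4.94), and the complement gene *C7* had 44 against 241 (3.63-fold lower, 2.62 to 5.12). Of 21 contractile genes, 9 were higher and 6 lower. By the median of ratios 11 and 2 were, against 863 and 158 of all 1800 by that scaling. *MUSTN1-2*, first known from muscle and skeleton, had 25 against 7 reads (ratio 5.39, 2.27 to 14.8), with 24 and 42 against 9 in juveniles. *MYH11*, the smooth muscle myosin, had 37 against 135, and here the juvenile pair had 31 and 101 against 79.

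Of the 1800 transcripts, 1738 are annotated as protein coding and 265 have no gene symbol; of the latter, 124 were higher and 103 lower. Among 7 miRNA hairpin transcripts, 5 were higher and 1 lower. The transcript ENSTGUT00000019385 (chromosome 1, 11244677 to 11244764) had the most reads of any listed, 4607 in HVC and 37241 in whole brain, 5.35-fold lower (5.19 to 5.52). Its counting interval is narrow, but the juvenile libraries did not agree on its direction, with ratios of 1.53 in R92L1 and 0.42 in R92L2. ENSTGUT00000018245 had 1631 against 459 reads (ratio 5.37, 4.83 to 5.96) and was higher in both juvenile libraries. The juvenile pair differed widely for it too, with ratios of 19.1 in R92L1 and 6.82 in R92L2. Its narrow interval does not cover such a spread between libraries. These are reads over annotated hairpins and do not measure the mature miRNA separately.

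The same transcripts were looked at in juveniles. Of the 664 transcripts higher in adult HVC, 322 have counts in the juvenile comparison, and 196 of these (60.9%) were called higher in both juvenile HVC libraries and 3 lower in both. Of the 643 lower, 414 have such counts, and 259 (62.6%) were lower in both and 3 higher in both. Over all 2086 transcripts of the series with counts at 45 d these shares were 20.2% higher and 21.0% lower, and over the 191 with no adult call 13.6% and 9.42%. Counts at 45 d come from the authors' lists and not from all transcripts they tested, so none of the shares extends to transcripts without counts at 45 d. Both juvenile HVC libraries are set against a single whole brain library, and tissue and run cannot be told apart at either age. Of the 12 largest higher ratios, 7 were above those of both juvenile libraries (*UTS2D*, *CRHBP*, *ADSSL1*, *ACE*, *CFTR*, *NTS* and *CALCR*), 3 were below both and 2 lay between. Of the 12 largest lower ratios, 3 were above both juvenile ratios, 4 below both and 5 between. Both sets were picked for extreme adult ratios, which favours adult ratios more extreme than the juvenile ones. These counts therefore cannot show a change with age. For *CFTR* the juvenile reads were 36 and 46 in HVC against 23, and for *CALCR* 143 and 153 against 96. Whether these differences between ages exceed the spread between birds was not tested, since each adult pool is a single library.

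**Figure D4:**
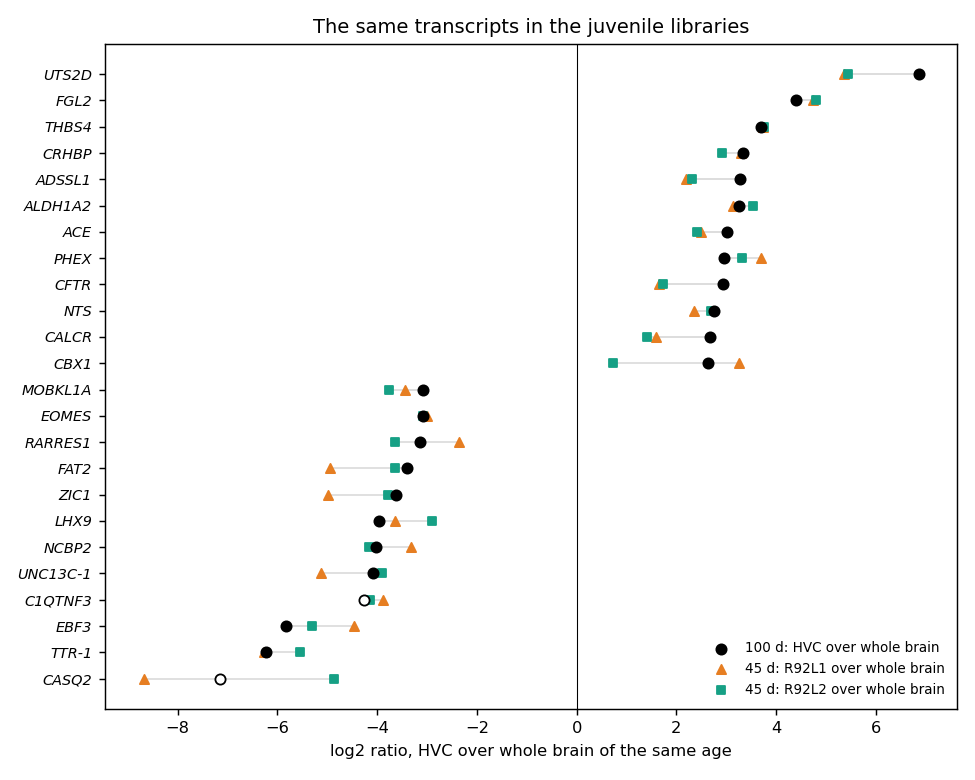
Log2 ratio of HVC over whole brain of the same age (horizontal axis) for the 24 transcripts with the largest ratios at 100 d. Black circles are adults, triangles and squares the juvenile libraries R92L1 and R92L2, each over juvenile whole brain, and open circles bounds at the floor of 3 counts; *CBX1* is the one with a juvenile library under 2-fold, and for *CASQ2* the juvenile libraries, with 1 and 17 reads, lie on either side of the adult bound.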

How the data were processed

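Per the labels and the study's methods, libraries were made with a NuGEN Ovation kit, sequenced, processed with Casava 1.7 and ELAND2 and mapped to taeGut1 (3.2.4); the authors counted reads per Ensembl transcript, without a statement on strand or multiply mapped reads, and tested pairs of groups with edgeR. The deposited table holds raw read counts with the authors' log2 fold change, p-value and q-value of each of the 1800 transcripts, those with the smallest p of 10859 tested. The counts are not normalized. The authors' log2 fold changes were used for 1 purpose, to solve the relative size of the libraries (1.51, identical over 1710 transcripts without 0 counts); their p-values and q-values served only to find how many transcripts were tested. Low counts are therefore selected for large differences.

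Ratios with exact 95% intervals, calls at 2-fold, a floor of 3 counts and the edgeR fit (4.0.16, R 4.3.3; glmQLFit and glmQLFTest, 1 mean per group, filterByExpr, Benjamini-Hochberg over 10859, threshold 0.1, infinite prior degrees of freedom, so the spread is shared by all transcripts) were computed here. DESeq2 1.42.0 was an alternative. The code was tested on simulated data. Python 3.11.15, numpy 2.4.6, scipy 1.17.1, pandas 2.3.3 and matplotlib 3.10.9 were used. Named transcripts are the 12 largest ratios in each direction with a symbol and at least 50 reads, the genes the paper names for adult HVC, and in each list the up to 4 called in each direction and 2 not called with the most reads. Members and lists were chosen with earlier results of these data known. Which of R92L1 and R92L2 is the first 45 d replicate is not stated. Intervals cover counting error only, and set tests were left out because the table was selected by p. Names and positions come from the deposited table. A few transcripts that the naming rule selects are not reported here.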

Additional observations from a re-analysis of the deposited data

Results flagged for a closer look

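In 6 transcripts the adult ratio was called in one direction and the ratios of both juvenile HVC libraries in the opposite one. Each age has a single whole brain library, and the difference between ages was not tested here. *TAC1*, the substance P precursor, had a log2 ratio of 2.57 at 100 d (67 reads in HVC, 17 in whole brain), while the juvenile HVC libraries had 10 and 11 reads against 55. *IL16*, a cytokine, had 1.40 (68 against 39), with 15 and 15 juvenile reads against 65. The unnamed protein-coding transcript ENSTGUT00000014843 had 1.20 (85 against 56), with 56 and 61 against 254. Lower in adults but higher in juveniles were *IFIT5*, an interferon-induced gene, at -2.05 (4 against 25; juveniles 12 and 19 against 8), ENSTGUT00000007257 at -1.99 (4 against 24; 22 and 32 against 10) and the peroxisomal oxidase gene *HAO1* at -1.65 (8 against 38; 17 and 21 against 16). All 6 have under 150 adult reads in total.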

How the results depend on the processing

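Every other scaling raised all HVC ratios by 1 shared factor, so higher calls grew and lower calls shrank. The shift was 0.44 on the log2 scale for the sum of listed counts, 0.17 for TMM and 0.75 for the median of ratios. It was 0.006 for the transcripts of the age comparisons, which were chosen by not being listed here, so a small shift was nearly fixed in advance. Higher and lower calls were 664 and 643 as reported (50.8% of calls higher), 863 and 296 by the sum (74.5%), 795 and 504 by TMM (61.2%), 863 and 158 by the median of ratios (84.5%) and 673 and 639 by the age comparisons (51.3%). Dropping the interval condition left both reported counts unchanged, which the selection of the list by p had nearly fixed in advance. Higher and lower calls were 217 and 143 at 4-fold (60.3%) and 415 and 531 with at least 20 reads on average (43.9%). They were 149 and 188 when the edgeR fit was also required. Counts of edgeR calls, 149 and 188 as reported, became 57 and 16 with TMM, 118 and 31 with DESeq2 size factors, 17 and 19 in DESeq2, and 227 and 375 in the additive fit of tissue and age. With R92L1 or R92L2 left out of that fit, they ranged from 0 to 240 and from 0 to 396. Single ratios were followed through the scalings only for the largest ratios and for the genes the paper names for adult HVC. Among these, most of them chosen for their size, *RELN* (-0.70) and *GLRA2* (-0.75) lost their call by the median of ratios. Every other gene printed here as less than 3.36-fold lower, such as *MBP*, *EGR1* and *HNRNPA2B1*, also lost its call under that scaling. Of 532 list counts, 390 stayed within 1.5 times and 142 moved. No paired analysis was possible because each side of the adult comparison is 1 library and only the 45 d HVC libraries carry replicate numbers.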

Other observations

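The calls with the most reads outside the lists were chosen after their values were seen and are given as values. *NGEF*, a guanine nucleotide exchange factor downstream of ephrin receptors, had 7344 reads in HVC against 4909 in whole brain (ratio 2.26, 2.18 to 2.34). The receptor phosphatase gene *PTPRK* had 2002 against 1175 (ratio 2.57, 2.39 to 2.77), *SCUBE1*, a secreted and membrane-bound glycoprotein gene, 935 against 386 (ratio 3.66, 3.24 to 4.13) and the formin *INF2* 494 against 165 (ratio 4.52, 3.78 to 5.42). *PTPRK*, *SCUBE1* and *INF2* had more scaled reads in both juvenile HVC libraries than in juvenile whole brain. On the lower side, the beta tubulin *TUBB2A-2*, which may share reads with its paralogs, had 1927 against 21247 (7.30-fold lower, 6.97 to 7.66), the tetraspanin *TSPAN7* 2612 against 10891 (2.76-fold lower, 2.65 to 2.88), the kinase gene *HIPK2* 1511 against 6857 (3.01-fold lower, 2.84 to 3.18) and the atypical cadherin *FAT3* 1695 against 6051 (2.36-fold lower, 2.24 to 2.50). *GJD2*, the neuronal gap junction protein connexin 36, had 56 against 432 (5.11-fold lower, 3.86 to 6.88).

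*RASGRP1*, a calcium-dependent activator of Ras, was called higher in adult HVC, with 385 against 254 reads at 100 d (ratio 2.29, 1.95 to 2.69), and had 64 and 114 reads against 271 at 45 d, ratios of 0.48 and 0.70. *PPL*, a plakin, had 647 against 352 at 100 d (ratio 2.78, 2.43 to 3.17), and at 45 d 238 and 271 against 274, ratios of 1.75 and 1.65 that were short of the call. The difference between ages was not tested for either.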
